A study of Mus musculus with 8 samples.

Results

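The 8 integrin β subunit genes of the mouse, *Itgb1* to *Itgb8*, were followed through RNA-seq libraries of pancreatic islets in which one of them, *Itgb1*, had been deleted from the endocrine lineage. The members were chosen by name, as all genes of the β subunit family, and make up 8 of the 24091 genes in the deposited count table. Libraries came from 4 control samples, whose genotype label is wild-type, and 4 mutant samples (*Itgb1* ΔEndo/ΔEndo), whose label gives *Ngn3-Cre* and itgb1-/- and whose alleles the methods write as *Ngn3-Cre* with *Itgb1* f/f. All 8 were from islets of C57BL/6 mice, taken at 6 weeks of age and freed from the pancreas with collagenase. *Ngn3-Cre* acts in the progenitors of the islet endocrine cells, and also where *Ngn3* is made in brain and gut. Vessel, stromal, duct and blood cells within an islet lie outside the targeted lineage. Whether their *Itgb1* was intact in the mutants was not measured here. Whether the controls carried Cre or a floxed allele and which exon was removed are not given in the sources used here. The libraries of a group are described as biological replicates, but the replicate list of the methods counts 3 animals per genotype for the RNA-seq, fewer than the 4 libraries. The spread behind each p-value is therefore that between libraries, which may in part be technical.

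Integrins are cell surface receptors made of 1 α and 1 β subunit, which bind extracellular matrix or other cells outside the cell and the actin cytoskeleton inside it. The β1 subunit pairs with most α subunits and makes up the main receptors for collagen, laminin and fibronectin. The β3, β5, β6 and β8 subunits pair with αv and bind RGD-containing ligands such as vitronectin or latent TGFβ, β4 pairs with α6 in the hemidesmosomes of epithelia, and β2 and β7 are leukocyte subunits. Islet endocrine cells lie against the basement membrane of the islet vessels, which is rich in laminin and collagen, and β1 integrins are their best known receptors for it.

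Inside the cell most β subunits end in a short tail that holds the sequence motif NPxY or NPxF, where talin docks and links the receptor to actin. The last 120 coding bases of each member, stop codon included, are shown because they show which members share this docking motif with *Itgb1*. They were read on the coding strand of GRCm38 from the principal transcript of GENCODE M21, and capitals mark each in-frame NPxY or NPxF.
Itgb1: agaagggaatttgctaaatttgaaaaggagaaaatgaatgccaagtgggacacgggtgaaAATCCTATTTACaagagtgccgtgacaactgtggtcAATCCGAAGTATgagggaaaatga
Itgb2: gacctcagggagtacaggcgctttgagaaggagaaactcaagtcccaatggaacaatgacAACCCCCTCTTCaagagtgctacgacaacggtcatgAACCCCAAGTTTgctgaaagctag
Itgb3: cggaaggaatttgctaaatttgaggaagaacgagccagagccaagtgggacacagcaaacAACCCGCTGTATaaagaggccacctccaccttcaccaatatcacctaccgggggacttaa
Itgb4: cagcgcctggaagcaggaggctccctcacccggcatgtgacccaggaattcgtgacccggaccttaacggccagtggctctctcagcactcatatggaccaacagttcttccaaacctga
Itgb5: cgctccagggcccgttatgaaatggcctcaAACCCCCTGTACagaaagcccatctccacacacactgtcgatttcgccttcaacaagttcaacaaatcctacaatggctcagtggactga
Itgb6: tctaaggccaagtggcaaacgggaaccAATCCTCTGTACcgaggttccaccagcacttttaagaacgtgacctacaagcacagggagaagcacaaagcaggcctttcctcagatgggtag
Itgb7: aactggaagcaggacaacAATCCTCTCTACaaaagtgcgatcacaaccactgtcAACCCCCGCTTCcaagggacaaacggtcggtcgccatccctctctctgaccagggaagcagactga
Itgb8: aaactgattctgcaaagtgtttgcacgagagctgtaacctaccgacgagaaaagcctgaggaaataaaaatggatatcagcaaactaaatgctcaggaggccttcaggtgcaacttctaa
An in-frame motif lay in this window in 6 of the 8 members, with 2 copies in *Itgb1*, *Itgb2* and *Itgb7* and 1 in *Itgb3*, *Itgb5* and *Itgb6*. None was found in *Itgb4* or *Itgb8*, and of all 21593 protein-coding genes searched in the same way 147 (0.681%) held at least 1. The search required the proline, so NxxY without it was neither marked nor counted. Such sequences are NITY in *Itgb3*, NKSY in *Itgb5* and NVTY in *Itgb6*, all in frame, and the counts are thus not counts of every docking site. The coding sequence of *Itgb4* was 5409 bases long, against 2304 to 2421 bases in the other 7, since β4 has a long tail of its own kind.

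The libraries held 35.1 to 67.6 M counts, with 3 libraries (control 2, control 3 and mutant 3) at 62.2 M or more and the other 5 at 41 M or less. Levels are given in CPM, the counts of a gene relative to the TMM-scaled library total, and 15233 genes passed the low count filter. Control 2 and control 3 stood apart from the rest: their summed acinar markers were 3211 and 9958 CPM against 28.9 to 692 CPM in the other 6, and their summed β-cell markers 120600 and 173200 CPM against 31630 to 49130 CPM. *Xist* was at 1125 CPM in control 3 and 1225 CPM in mutant 3 and at most 0.753 CPM elsewhere, so the sexes were mixed within each group. Markers of the labelled tissue were high in every library, and no listed marker of β-, α-, ductal, vascular or blood cells was at 0 in all 8. Because these are bulk samples, fewer cells of a type and less RNA per cell cannot be told apart, and values within the 5 shallower libraries or without controls 2 and 3 stand beside those over all 8.

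**Figure D1:**
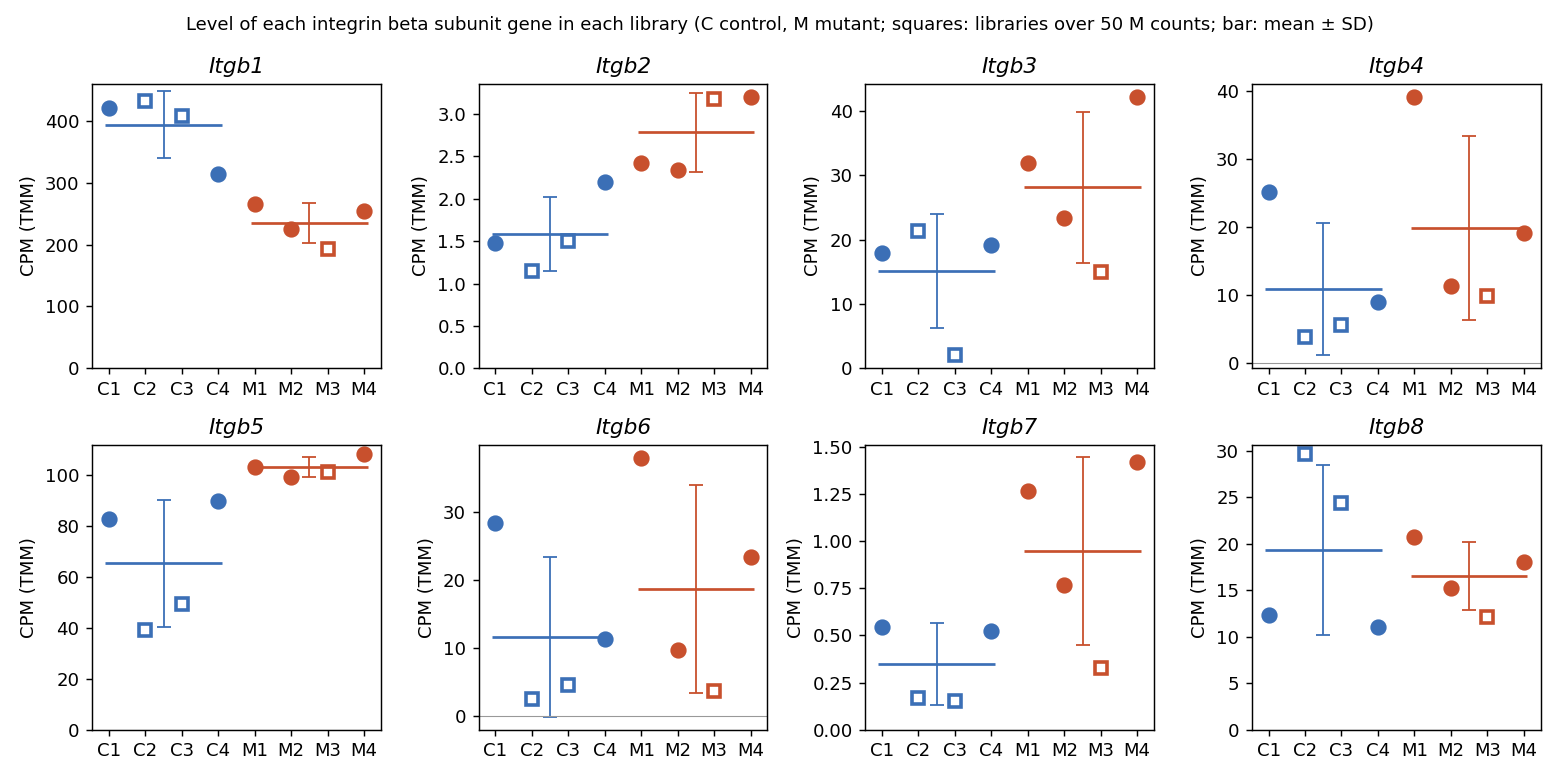
Level of each β subunit gene in CPM after TMM scaling (vertical axes, each from 0 or just below it) in control libraries C1 to C4 and mutant libraries M1 to M4. Open squares are the 3 libraries of over 50 M counts, and bars give the mean and SD of the 4 libraries of a group. The groups do not overlap for *Itgb1* (all mutants at or below 266 CPM, all controls at or above 315 CPM), *Itgb2* and *Itgb5*, and they overlap for the other 5.

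*Itgb1* was the most abundant β subunit in every library of either genotype, and *Itgb5* was second in every one. Per kilobase of exon, the mean level of *Itgb1* in the controls was 92.5 ± 12.6 CPM per kb (SD, n = 4) and that of *Itgb5* was 20 ± 7.58 CPM per kb. Then came *Itgb8*, *Itgb3*, *Itgb6*, *Itgb4* and *Itgb2*, with control means of 3.37, 2.58, 1.85, 1.37 and 0.538 CPM per kb, and each of these 5 overlapped its neighbour in the order between libraries. *Itgb7* was lowest, at 0.131 ± 0.0816 CPM per kb. In the mutants the order began with *Itgb1* at 55.1 ± 7.62 CPM per kb and *Itgb5* at 31.5 ± 1.19 CPM per kb. *Itgb3*, *Itgb6*, *Itgb8* and *Itgb4* followed at 4.79, 2.97, 2.88 and 2.52 CPM per kb with overlapping ranges, then *Itgb2* at 0.947 and *Itgb7* at 0.356 CPM per kb. Apart from *Itgb1* and *Itgb5*, the β subunits that pair with αv thus had, with the epithelial subunit *Itgb4*, means far below that of *Itgb1*. Single libraries of these genes ran from 0.355 to 5.16 CPM per kb in the controls and from 0.58 to 7.19 CPM per kb in the mutants. The rank of these genes among each other is not fixed by these libraries.

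The deleted gene, *Itgb1*, was lower in every mutant library. In CPM, controls 1 to 4 gave 422, 432, 408 and 315, and mutants 1 to 4 gave 266, 225, 193 and 255. The lowest control lay above the highest mutant, and the mutant mean was 59.6% of the control mean. The counts take in all exons of the gene (GRCm38 chromosome 8, 128685654 to 128733579, plus strand), in deleted and intact cells alike. On the log2 scale the change was -0.75 (SE 0.15), which edgeR's quasi-likelihood test gave a Benjamini-Hochberg adjusted p of 0.233 and DESeq2 one of 0.00123. An exact two-sided permutation test of the CPM values gave p = 0.0286, the smallest that 4 against 4 libraries can reach. Among the 5 shallower libraries the mutants were at 67.6% of the controls, with a log2 fold change of -0.57 and an adjusted p of 0.109 (edgeR quasi-likelihood test). In the 3 deeper libraries mutant 3 was at 46% of the mean of controls 2 and 3, with no replicate of the mutant.

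Across the family, 6 members had a higher mean in the mutants and 2, *Itgb1* and *Itgb8*, a lower one. Of the 6, *Itgb7* passed the low count filter through the mutants and so gives no support to these counts. None of the 8 passed an adjusted p of 0.05 with a fold change above 2 in edgeR's quasi-likelihood test, which called 0 of the 15233 genes tested (0%). DESeq2 called 1.23% of genes by the same thresholds and no member. By adjusted p alone it gave 1 member, *Itgb1*, as lower, as it did for 0.835% of all genes, and that change was under 2-fold. At an unadjusted p below 0.05 edgeR gave 2 of the other 7 members as higher (*Itgb2* and *Itgb5*; 3 of 8 with *Itgb7*), where 6.8% of all genes were, and 1 as lower (*Itgb1*), where 7.19% were. Every mutant exceeded every control in 2 members, *Itgb2* and *Itgb5*, against 4.4% of all genes, and the reverse held in 1 member, *Itgb1*, against 3.8%. The median log2 fold change was 0.68 over the 7 without *Itgb7*, 0.75 over the 8, and 0.00 over all genes tested.

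Among the subunits other than β1 that pair with αv, *Itgb5*, a receptor subunit for vitronectin, was the most abundant. Its levels in controls 1 to 4 were 82.8, 39.1, 49.3 and 89.6 CPM, and in mutants 1 to 4 they were 103, 99, 101 and 108 CPM. The mutants were close to each other and above all controls, whereas the controls fell into a high pair (1 and 4) and a low pair (2 and 3), which are the 2 libraries with high acinar and β-cell markers. The log2 fold change of 0.66 (SE 0.25) had an adjusted p of 0.333 in edgeR's quasi-likelihood test. Within the 5 shallower libraries it was 0.26 and without controls 2 and 3 it was 0.25, and the mutant mean went from 157.8% of the control mean over 8 libraries to 120% over 5. The mutants were thus higher in each choice of libraries, by an amount that depended on controls 2 and 3. The gene lies on chromosome 16 from 33829665 to 33949338 on the plus strand.

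*Itgb3*, which pairs with αv and, in platelets, with αIIb, was measured at 18, 21.4, 2.09 and 19.2 CPM in the controls and 32, 23.4, 15 and 42.3 CPM in the mutants (chromosome 11, 104608000 to 104670471, plus strand). Control 3 was far below the other controls, and mutant 3, the other library with *Xist*, was the lowest mutant. The log2 fold change of 0.89 (SE 0.60) had an adjusted p of 0.492 in edgeR's quasi-likelihood test, and the groups overlapped. It was 0.80 within the 5 shallower libraries and 0.59 without controls 2 and 3. Summed platelet markers were 2.3 to 4.28 CPM in the controls and 2.94 to 10.1 CPM in the mutants, low in both, and their part in the level of *Itgb3* was not tested.

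*Itgb6*, an epithelial subunit that with αv binds and releases latent TGFβ, was at 28.4, 2.43, 4.48 and 11.3 CPM in the controls and 38, 9.7, 3.65 and 23.4 CPM in the mutants (chromosome 2, 60598292 to 60722603, minus strand). Each group spanned about 10-fold or more, the deeper libraries were the lowest in both, and the ranges overlapped. The mutants differed by 0.68 on the log2 scale (SE 0.85, adjusted p 0.71 in edgeR's quasi-likelihood test), which turned to -0.10 without controls 2 and 3. Single libraries moved it as far, to 1.63 without control 1 and to 0.07 without mutant 1.

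For *Itgb8*, which also activates TGFβ with αv and whose coding end held no NPxY, the direction depended on the libraries. The controls, in order of number, were at 12.3, 29.6, 24.4 and 11 CPM and the mutants at 20.7, 15.3, 12.1 and 18 CPM. Controls 2 and 3 were the highest of the 8 libraries and controls 4 and 1 were among the 3 lowest, with mutant 3 between them. Over all 8 the difference was -0.23 on the log2 scale (SE 0.34, adjusted p 0.761 in edgeR's quasi-likelihood test). Within the 5 shallower libraries every mutant was above both controls, and the log2 fold change was 0.62 with an adjusted p of 0.112 in the same edgeR test. In the deeper 3 the reverse held, with mutant 3 at 44.7% of the mean of controls 2 and 3. The gene lies on chromosome 12 from 119162803 to 119238276 on the minus strand.

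*Itgb4*, the subunit of the α6β4 laminin receptor of epithelia, was highest in the same 3 libraries as *Itgb6* (mutant 1, control 1 and mutant 4). It measured 25.1, 3.82, 5.49 and 8.92 CPM in the controls and 39.2, 11.3, 9.87 and 19.1 CPM in the mutants. Library 1 of each genotype was its highest, and control 2 was the lowest of all 8. This gave 0.88 (SE 0.64) on the log2 scale and an adjusted p of 0.524 in edgeR's quasi-likelihood test. The value was 0.45 within the 5 shallower libraries and 0.22 without controls 2 and 3, and it was 1.71 without control 1 and 0.31 without mutant 1. *Itgb4* lies on chromosome 11 from 115974725 to 116008411 on the plus strand, and 537 bases of its exons overlap a long noncoding RNA gene on the other strand, *B230344G16Rik*. The counting used default settings, which ignore strand, so reads in those bases could not be assigned to 1 of the 2 genes by strand. Whether such reads entered the count of *Itgb4* was not tested. None of the other 7 members shared exon bases with another gene of GENCODE M21.

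The leukocyte subunits were the least abundant. *Itgb2*, which pairs with αL, αM and αX on leukocytes, was at 1.48, 1.15, 1.5 and 2.19 CPM in the controls and 2.42, 2.33, 3.18 and 3.2 CPM in the mutants (chromosome 10, 77530348 to 77565674, plus strand). All mutants were above all controls, with mutant 2 and control 4 only a little apart. This came to 0.82 (SE 0.26) on the log2 scale, adjusted p 0.333 in edgeR's quasi-likelihood test, to 0.52 within the 5 shallower libraries and to 0.60 without controls 2 and 3. Of the α subunits it pairs with, *Itgal* was at 0.49 (SE 0.38), *Itgam* at 1.22 (SE 0.59) and *Itgax* at -0.77 (SE 0.77) in log2 fold change. Summed leukocyte markers were 38 to 88.3 CPM in the controls and 46.7 to 90.6 CPM in the mutants and overlapped. Over all 8 libraries 3 of the 9 markers tested were higher and 6 lower in the mutants. This split depended on the libraries, as 8 were higher and 1 lower within the 5 shallower ones. Without controls 2 and 3, all 9 were higher and 0 lower. Within the 5 shallower libraries *Itgb2* was lowest in control 1 and highest in mutants 1 and 4, as was the leukocyte sum, at 38, 50.6 and 56 CPM. Control 4 and mutant 2, with sums of 47.3 and 46.7 CPM, were close in *Itgb2*, whereas control 3 and mutant 3, with sums of 88.3 and 90.6 CPM, were not. The part of leukocytes in the level of *Itgb2* was not tested.

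*Itgb7*, which pairs with α4 and αE in lymphocytes of the gut and its lymphoid tissue, was counted only 8 to 22 times per library in the controls and 22 to 60 times in the mutants. This gave 0.545, 0.167, 0.152 and 0.525 CPM in the controls and 1.27, 0.77, 0.325 and 1.42 CPM in the mutants, so mutant 3 lay below controls 1 and 4. The log2 fold change of 1.47 (SE 0.60) was the largest of the 8 and had an adjusted p of 0.341 in edgeR's quasi-likelihood test. It was 1.10 within the 5 shallower libraries and 0.75 (SE 0.67) without controls 2 and 3. All 4 mutants but only 2 of the 4 controls were above the low count filter, so *Itgb7* was tested through the group in which it was higher. On the log2 scale its partners *Itga4* and *Itgae* differed by -0.10 (SE 0.30) and -0.03 (SE 0.40), and both turned positive when only total counts were used for scaling. The gene lies on chromosome 15 from 102215995 to 102231935 on the minus strand.

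**Figure D2:**
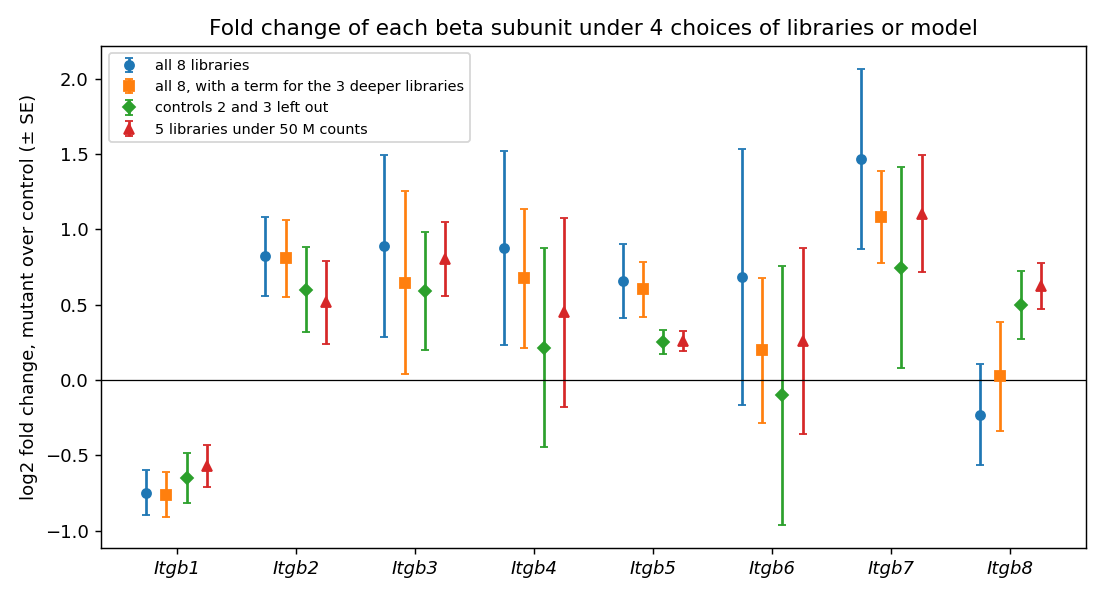
Log2 fold change of each β subunit gene (vertical axis, mutant over control, with its SE) from edgeR's quasi-likelihood model under 4 choices: all 8 libraries, all 8 with a term for the 3 deeper libraries, controls 2 and 3 left out, and the 5 libraries of under 50 M counts. *Itgb1* stayed between -0.76 and -0.57 in all 4, whereas *Itgb8* ran from -0.23 to 0.62 and *Itgb6* from -0.10 to 0.68.

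With a term for the 3 deeper libraries, the log2 fold change of *Itgb1* was -0.76 and that of *Itgb2* was 0.81, both within 0.02 of the value without the term. The same term took *Itgb6* from 0.68 to 0.20, *Itgb7* from 1.47 to 1.08 and *Itgb8* from -0.23 to 0.03. *Itgb2*, *Itgb3*, *Itgb4*, *Itgb5* and *Itgb7* kept a positive value in each of the 4 choices plotted, and *Itgb1* a negative one. Within the 5 shallower libraries 4 members were higher at an unadjusted p below 0.05, against 12.6% of all genes there. They were *Itgb3*, *Itgb5*, *Itgb7* and *Itgb8*, of which *Itgb8* had a lower mean over all 8 libraries. *Itgb2* was not among them (unadjusted p 0.112 in edgeR's quasi-likelihood test). At the same threshold 1 member, *Itgb1*, was lower, against 10.7%. Leaving out single libraries left 1 to 4 of the 8 members higher at an unadjusted p below 0.05, against 3.78 to 8.95% of all genes. It left 1 lower, against 3.92 to 10.2%. The 4 were *Itgb2*, *Itgb4*, *Itgb5* and *Itgb7*, without control 1. *Itgb7*, which gives no support to such counts, was also among the higher members without control 4 and without mutant 3. The count of higher members was 1 without control 3, where 4.96% of all genes were higher, and 1 without mutant 4, where 3.78% were. Scaling by total counts alone moved the median of all genes by 0.15 on the log2 scale, with *Itgb1* at -0.59 and *Itgb5* at 0.75 on that scale.

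The make-up of the β subunit RNA was next compared between genotypes. *Itgb1* was 71.8, 82.1, 81.5 and 66.9% of the summed level per kilobase of the 8 genes in controls 1 to 4 and 54.1, 56.4, 54 and 53.9% in mutants 1 to 4. The mutants lay within 3 points of each other and below every control, and the mean went from 75.6 ± 7.47% to 54.6 ± 1.19% (SD, n = 4 each). *Itgb5* was 18.4, 9.68, 12.8 and 24.9% in the controls and 27.4, 32.3, 36.9 and 29.8% in the mutants, again without overlap. The summed level of the other 7 genes was 38.9, 22.1, 21.7 and 36.5 CPM per kb in the controls and 52.9, 41, 38.7 and 51.2 CPM per kb in the mutants. Control 1, at 38.9, lay just above mutant 3, at 38.7, and the means were 29.8 ± 9.19 and 45.9 ± 7.15 CPM per kb. All 8 together came to 122 ± 11.7 CPM per kb in the controls and 101 ± 14.6 CPM per kb in the mutants, with overlapping ranges. Within the 5 shallower libraries the *Itgb1* share was 14.6 points lower in the mutants, against 21 points over all 8. Since a share falls when *Itgb1* falls, whatever the other genes do, it adds no evidence on the others, whose own sum is the measure of them.

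**Figure D3:**
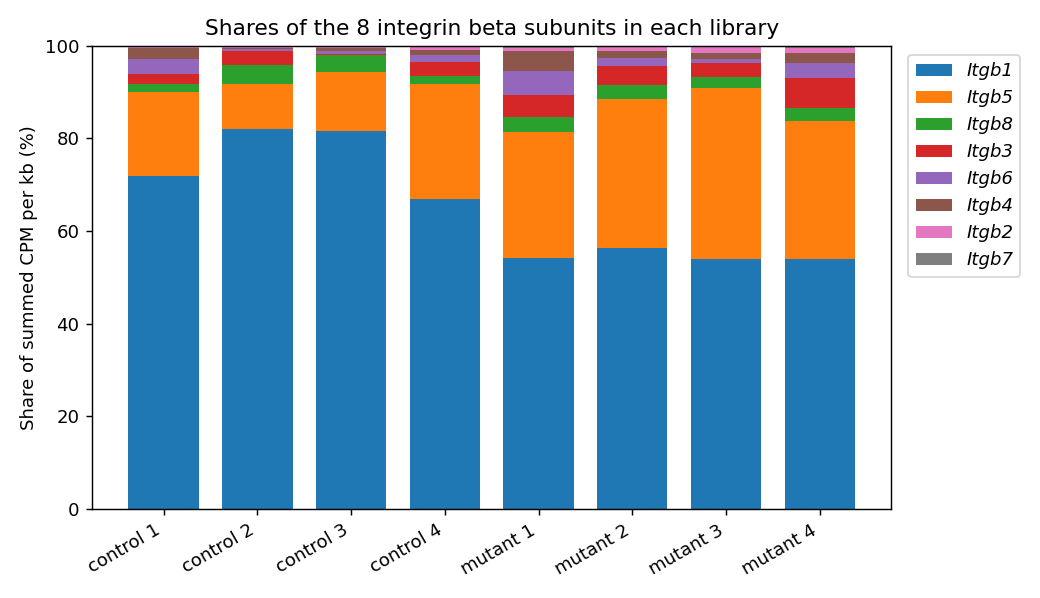
Share of each β subunit gene in the summed CPM per kilobase of the 8 genes (vertical axis, percent), 1 stacked bar per library. The *Itgb1* segment is 66.9 to 82.1% in the controls and 53.9 to 56.4% in the mutants, and the *Itgb5* segment is 9.68 to 24.9% in the controls and 27.4 to 36.9% in the mutants.

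Markers of cells outside the endocrine lineage also differed between libraries, and their values stand beside the results above. Summed ductal markers were 793, 508, 406 and 939 CPM in the controls and 1166, 798, 1026 and 928 CPM in the mutants, each in order of library number. They were lowest in controls 2 and 3, as were *Itgb4* and *Itgb5* and, among the controls, *Itgb6*. Of the 7 ductal markers 5 were higher and 2 lower in the mutants. At an unadjusted p below 0.05 in edgeR's quasi-likelihood test 2 were higher, against 6.8% of all genes, and 1 lower, against 7.19%. Within the 5 shallower libraries 0 were higher and 0 lower at that p. Among these 7, *Krt19* and *Sox9*, picked after values were seen, were at 3.08 to 22.6 CPM and 4.81 to 30.1 CPM in the controls. In the mutants they were at 13 to 65.2 CPM and 11.6 to 52.4 CPM, so both overlapped between groups. They do not stand for the whole list, of which 2 markers were lower in the mutants. Summed fibroblast and pericyte markers were 306, 300, 400 and 246 CPM in the controls and 562, 480, 440 and 546 CPM in the mutants, without overlap. Of these 9 markers 8 were higher and 1 lower, and 7 were higher at an unadjusted p below 0.05, against 6.8% of all genes. Without controls 2 and 3 the count was 4, against 650 of the 15645 genes tested there. Summed endothelial markers, at 824 to 953 CPM in the controls and 791 to 949 CPM in the mutants, overlapped. The part of these cell types in the levels of the β subunits was not tested, and in bulk RNA the genotype and the cell make-up of these islets cannot be told apart.

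**Figure D4:**
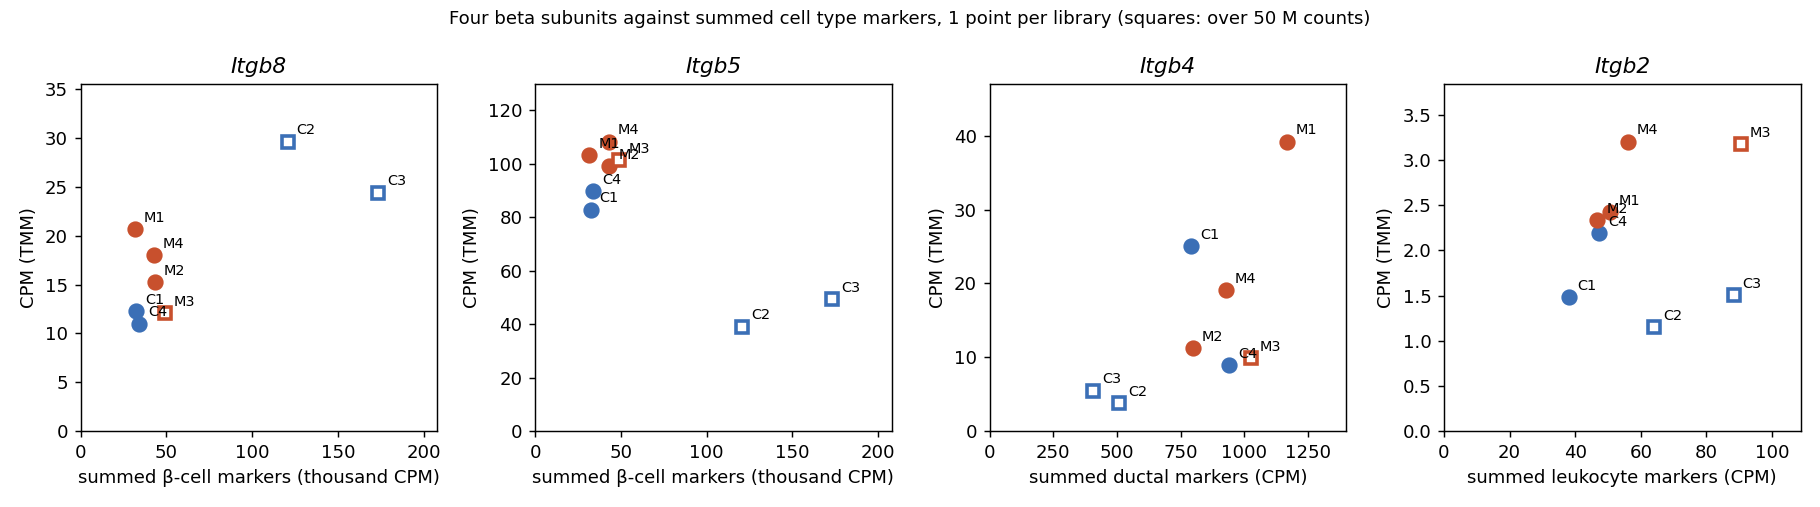
Level of *Itgb8*, *Itgb5*, *Itgb4* and *Itgb2* (vertical axes, CPM) against the summed level of β-cell, ductal or leukocyte markers (horizontal axes, CPM, with β-cell markers divided by 1000), 1 point per library with controls C1 to C4 and mutants M1 to M4 and open squares for the libraries of over 50 M counts. Controls 2 and 3 lie apart at 120600 and 173200 CPM of β-cell markers, where *Itgb8* is high and *Itgb5* low.

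The α subunits, with which the β subunits must pair to reach the cell surface, were mostly at a higher mean level in the mutants. Of the 18 on the list 17 were tested (*Itgad* was too low), 12 had a higher and 5 a lower mean in the mutants, and the median log2 fold change was 0.43. At an unadjusted p below 0.05, 6 of the 17 were higher, against 6.8% of all genes, and 0 were lower, against 7.19%. Every mutant was above every control in 3 of the 17, against 4.4% of all genes, and edgeR's quasi-likelihood test called 0 while DESeq2 called 1, *Itga7*, against 1.23%. The count of 6 dropped to 3 without control 2, where 3.98% of all genes were higher, and to 2 without mutant 1 (4.22%) or mutant 4 (3.78%). It was 4 without control 3 (4.96%) or mutant 2 (4.76%). Without control 1, control 4 or mutant 3 it stayed at 6, where 8.24 to 8.95% of all genes were higher. Leaving out controls 2 and 3 gave 2, against 650 of the 15645 genes tested there, and the 5 shallower libraries gave 7, against 12.6%.

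*Itga7*, the α subunit of a laminin receptor with β1, was at 7.24, 5.18, 6.1 and 5.58 CPM in the controls and 13.2, 9.36, 13.7 and 12.5 CPM in the mutants. The groups were well apart, the log2 fold change was 1.02 (SE 0.19), and the adjusted p was 0.219 in edgeR's quasi-likelihood test and 8.64e-05 in DESeq2. Within the 5 shallower libraries it was 0.86. *Itga5*, the α subunit of the fibronectin receptor α5β1, measured 46.3, 13, 7.87 and 38 CPM in the controls and 72.2, 50.9, 58.2 and 73.7 CPM in the mutants. Its log2 fold change of 1.28 (SE 0.50) dropped to 0.63 within the 5 shallower libraries, as controls 2 and 3 were its lowest. *Itga9*, a tenascin and osteopontin receptor subunit, did not overlap between groups either, with 0.60 (SE 0.23) on the log2 scale and 0.40 within the 5.

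The main laminin-binding partners of β1, *Itga3* and *Itga6*, were higher by 0.59 (SE 0.25) and 0.43 (SE 0.19) on the log2 scale, both at an unadjusted p below 0.05 in edgeR's quasi-likelihood test and both with overlap between groups. They were at 0.37 and 0.46 within the 5 shallower libraries and at 0.25 and 0.32 without controls 2 and 3. *Itga6*, which also pairs with β4, had mean levels of 11.1 CPM per kb in the controls and 15 CPM per kb in the mutants, far above those of *Itgb4*. *Itgav*, a partner of β1 as well as of β3, β5, β6 and β8, was the most abundant α subunit per kilobase. It was at 367, 441, 281 and 400 CPM in the controls and 475, 503, 188 and 585 CPM in the mutants. Mutant 3 was its lowest library and the other 3 mutants were above all controls. That gave 0.24 (SE 0.31) on the log2 scale over 8 libraries, -0.02 with the term for the deeper libraries and 0.44 within the 5. The collagen-binding subunits split, with *Itga1* at 0.13 (SE 0.18), *Itga2* at 0.96 (SE 0.66), *Itga10* at -0.15 (SE 0.23) and the scarce *Itga11* at 1.73 (SE 0.53), of which only *Itga11* had an unadjusted p below 0.05. *Itga8* (0.16, SE 0.44) and the platelet subunit *Itga2b* (-0.09, SE 0.31) stayed within their errors, and *Itga2b* turned to 0.06 on the scale of total counts.

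The 12 α subunits that can pair with β1 (*Itga1* to *Itga11* and *Itgav*) summed to 100, 82.6, 60.6 and 95.8 CPM per kb in the controls and 142, 118, 73.8 and 143 CPM per kb in the mutants. *Itgb1* per unit of this sum was 0.989, 1.23, 1.58 and 0.771 in the controls and 0.439, 0.449, 0.615 and 0.418 in the mutants. Every mutant ratio was below every control ratio, and mutant 3 and control 3, the libraries with *Xist*, had the highest ratio of their group. Since the ratio falls when *Itgb1* falls, it adds no evidence on the α subunits, whose own sum is the measure of them.

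**Figure D5:**
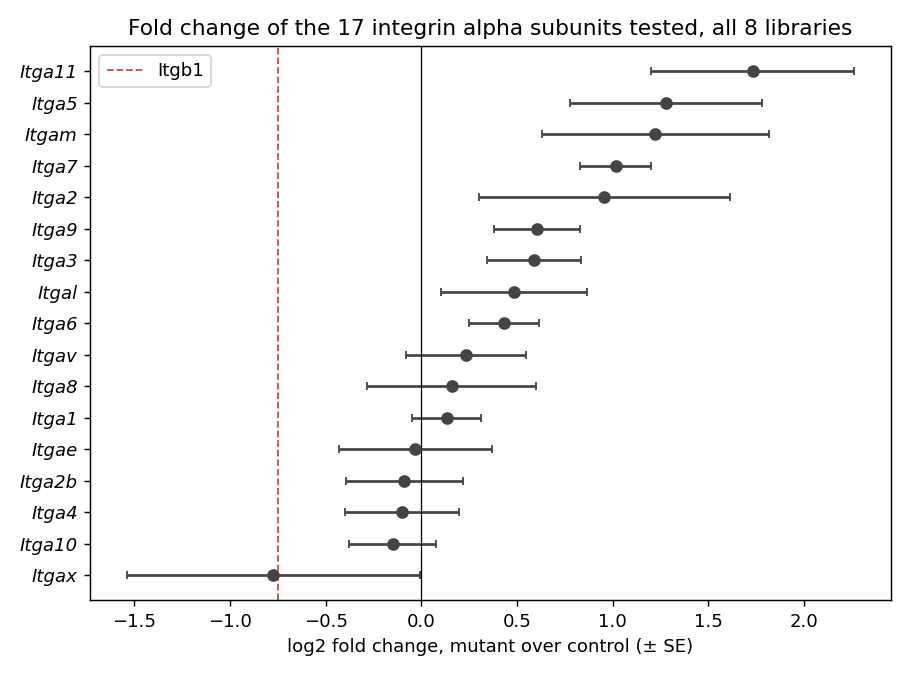
Log2 fold change (horizontal axis, mutant over control, with its SE) of the 17 α subunit genes tested over all 8 libraries with edgeR's quasi-likelihood model, ordered by size, with the value of *Itgb1* as a dashed line. The points run from -0.77 for *Itgax* to 1.73 for *Itga11*, and 12 of the 17 lie above 0.

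Among the ligands of these receptors 31 of 32 listed genes were tested, 25 had a higher and 6 a lower mean in the mutants, and the median log2 fold change was 0.69. At an unadjusted p below 0.05, 9 of the 31 were higher, against 6.8% of all genes, and 0 were lower, against 7.19%. Every mutant exceeded every control in 10, against 4.4% of all genes, and edgeR's quasi-likelihood test called 0 while DESeq2 called 4, against 1.23%. The 4 with the smallest p were those that DESeq2 called. The collagen I genes *Col1a1* and *Col1a2*, whose product binds α1β1 and α2β1, went from means of 54.4 ± 27.4 and 45.4 ± 15.6 CPM to 189 ± 43.3 and 134 ± 34.7 CPM (SD, n = 4 each). *Fn1*, the fibronectin ligand of α5β1 and αv integrins, was at 37.3, 8.29, 7.45 and 14.8 CPM in the controls and 78.3, 57.6, 94.5 and 51.9 CPM in the mutants. *Tgfb1*, whose latent form αvβ6 and αvβ8 bind, went from 18.7 ± 6.5 to 40.1 ± 7.06 CPM. The log2 fold changes of *Col1a1*, *Col1a2*, *Fn1* and *Tgfb1* were 1.80, 1.56, 2.06 and 1.10 over all 8 libraries and 1.26, 1.32, 1.27 and 0.60 within the 5 shallower ones. Every mutant also had a higher sum of fibroblast and pericyte markers than every control, with the values given above. Within the mutants *Fn1* was highest in mutant 3, whose marker sum was their lowest (440 CPM). Within the controls it was lowest in control 3, whose sum was their highest (400 CPM). The part of these cells in the ligand genes was not tested. The count of 9 went to 5 without control 2 or mutant 4, where 3.98% and 3.78% of all genes were higher. It went to 14 without control 1, where 8.72% were, and to 11 without control 3, where 4.96% were.

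The 34 listed genes whose products bind or regulate the β tails all passed the filter, and their median log2 fold change was 0.15. In the mutants 23 had a higher and 11 a lower mean, and at an unadjusted p below 0.05, 4 of the 34 were higher, against 6.8% of all genes, and 1 lower, against 7.19%. The test of edgeR called 0 and DESeq2 called 1, *Apbb1ip*, against 1.23% of all genes. *Apbb1ip*, the adaptor RIAM that brings talin to integrins and is best known from blood cells, was at 1.14, 0.668, 0.874 and 1.12 CPM in the controls and 2.85, 4.38, 5.57 and 3.84 CPM in the mutants. Every mutant was more than double every control. On the log2 scale that was 2.14 (SE 0.29), adjusted p 0.165 in edgeR's quasi-likelihood test and 7.36e-08 in DESeq2, and 1.70 within the 5 shallower libraries. Talin itself, *Tln1*, which binds the NPxY shown in capitals above, had a log2 fold change of 0.40 (SE 0.15), and of 0.28 within the 5, and overlapped between groups. *Actn1*, the actin crosslinker α-actinin, had 0.59 (SE 0.17), and 0.34 within the 5, and did not overlap. *Ptk2b*, the kinase Pyk2, had -0.69 (SE 0.27) over 8 libraries and -0.06 within the 5 shallower ones, since controls 2 and 3 were its highest, at 69.7 and 94.1 CPM. The count of 4 higher became 2 without control 2, control 3 or mutant 1, where 3.98 to 4.96% of all genes were higher. It was 3 without mutant 4 (3.78%) or control 4 (8.24%) and 7 without control 1 (8.72%). The count of 1 lower stayed at 1 without control 1, control 4 or mutant 1 and was 0 without any other single library.

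The genes whose log2 CPM ran most closely with a member over the 8 libraries were found among all tested genes with a mean of at least 1 CPM. With 8 points and so many genes every member has close matches, so the r is a measure of likeness only. *Itgb1* ran with *Armcx5* (Pearson r 0.967) and *Luc7l2* (0.964), a splicing factor. *Itgb5* ran with *B3glct* (0.995), a glucosyltransferase, and *Itgb2* with the protease gene *Capn1* (0.987) and with *Tmem234* (0.984). The closest to *Itgb3* were *Sash1* (0.988) and *Wwtr1* (0.986), the Hippo pathway coactivator TAZ. For the epithelial *Itgb4* they were *B4galnt1* (0.996), a ganglioside synthase, and *Card10* (0.994), and for *Itgb6* the forkhead gene *Foxq1* (0.986) and *Magi3* (0.983). *Itgb7* ran with *Ksr1* (0.991), a MAP kinase scaffold, and complement factor *Cfb* (0.99), and *Itgb8* with the Wnt enhancer *Rspo4* (0.981) and the tight junction gene *Ocln* (0.975). Since libraries 2 and 3 of the controls stand apart in many genes, any gene that follows them shares this pattern.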

How the data were processed

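RNA from islets of 4 control and 4 mutant samples was made into ribosomal RNA depleted libraries and sequenced as single-end reads. The authors used Trimmomatic and FASTP for trimming, STAR for alignment to mm10 and featureCounts in its default settings, and deposited raw counts of each gene in each library. GRCm38, STAR, featureCounts and edgeR appear in the submitters' processing notes. A deposited table of the authors' own comparison (log2 fold changes, p-values, FDR and CPM over the genes they kept) was not used.

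All values here were calculated from those deposited counts in R 4.3.3. Of 24091 genes 15233 passed filterByExpr and went into edgeR 4.0.16 (TMM factors, quasi-likelihood F test), with genotype as the only term, and p-values were adjusted over all genes tested (Benjamini-Hochberg). A call needed both an adjusted p below 0.05 and more than a 2-fold change. The authors corrected batches that the sources do not name, so a term for the 3 libraries of over 50 M counts is an alternative here. Levels per kilobase used the exon length in the count table, and SE is the log2 fold change over the square root of F. Exact permutation tests were two-sided. Sums and shares over the members carry no p-value.

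The members, the lists of α subunits (18), ligands (32) and tail-binding proteins (34), and the marker lists were chosen with earlier results of these data known, and 158 of their 160 genes were in the table. Named genes were the 8 members, the α subunits tested, the 4 ligands and the 4 tail-binding genes of smallest p, and for each member the 2 genes of highest r, of which 1 is not reported here. *Krt19*, *Sox9*, *Xist* and *B230344G16Rik* were added after values were seen. Coding ends came from GENCODE M21 on GRCm38. Alternatives were DESeq2 1.42.0, RLE factors, scaling by total counts only, the likelihood ratio test of edgeR, no low count filter, the replicate number as a block, the term for deeper libraries, the 5 shallower libraries, levels not divided by length, and each library left out. The older quasi-likelihood form and leaving out controls 2 and 3 together were added after seeing the data. The tests were checked on simulated counts. No 2 libraries were alike within sampling noise, as the chi-square per gene was at least 22.8 for any pair.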

Additional observations from a re-analysis of the deposited data

Results flagged for a closer look

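In the mutants the *Itgb1* share of the summed β subunit level was 56.4% in mutant 2, with the nearest other mutant at 54.1%, a gap of 0.909 of the whole range of the 4 mutants, which itself spanned few points. Among the controls *Itga1* was at 24.6 CPM in control 2, with the nearest control at 18.6 CPM, a gap of 0.89 of the range. Each was flagged because 1 library lay far from the other 3 of its group by Dixon's criterion. Chance alone meets this criterion in about 1 group in 20, and 2 of the 70 groups examined met it here.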

How the results depend on the processing

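Over all genes 0 were called by edgeR's quasi-likelihood test, 187 by DESeq2, 91 by edgeR's likelihood ratio test, 3 with the term for deeper libraries and 10 within the 5 shallower libraries. DESeq2 and the likelihood ratio test each called 1 α subunit, 4 ligands and 1 tail-binding gene, and the quasi-likelihood test 0 of each. For *Itgb1* the log2 fold change was -0.75 by DESeq2 (adjusted p 0.00123) and -0.75 by the likelihood ratio test (adjusted p 0.0341), past the threshold in both. The *Itgb1* share differed between mutants and controls by -14.56 points within the 5 libraries and by -14.76 without controls 2 and 3, and leaving out 1 library gave -23.88 to -18.82. With total counts alone, 1154 genes were higher and 542 were lower (unadjusted p below 0.05), against 1036 and 1096 with TMM.

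The genes named here whose direction turned all had an unadjusted p above 0.05 over the 8 libraries. *Itgb6* turned to -0.10 without controls 2 and 3. *Itgb8* (-0.23) turned to 0.0268 with the term for deeper libraries, 0.62 within the 5 and 0.50 without controls 2 and 3, and ran from -0.42 to 0.0505 with single libraries left out, positive without control 2. *Itga2b* turned to 0.0637 with total counts and 0.0539 within the 5, and ran from -0.21 to 0.14, positive without mutant 3. *Itga4* turned to 0.0392 with total counts, and ran from -0.28 to 0.0839, positive without control 1, control 2 or mutant 2. *Itga8* turned to -0.11 with the term, and ran from -0.0502 to 0.47, negative without mutant 1 or mutant 4. *Itgae* turned to 0.14 with total counts and 0.22 within the 5, and ran from -0.17 to 0.25, positive without control 1 or mutant 3. *Itgal* turned to -0.0403 without controls 2 and 3, *Itgav* to -0.0233 with the term, and *Itgax* to 0.62 without controls 2 and 3, with -1.64 to 0.10 over single libraries left out, positive without control 3. The cause was not tested.

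The replicate numbers were tried as a block, although same-numbered libraries deviated together in 3 of 4 pairs only (correlations 0.432, -0.03, 0.433 and 0.231), so the numbers were not taken as pairs. The replicate block called 0 genes, and at an unadjusted p below 0.05 it gave 1600 genes higher, 1182 lower, 5 members higher (*Itgb3* and *Itgb4* besides *Itgb2*, *Itgb5* and *Itgb7*) and 1 lower, 8 α subunits, 17 ligands and 9 tail-binding genes. It gave *Itgb1* an adjusted p of 0.125 in edgeR's quasi-likelihood test. *Itgb7*, at 8 to 60 counts per library, is limited by depth.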
